A study of Mus musculus with 12 samples.

Results

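Wnt ligands are secreted, lipid-modified glycoproteins that carry signals between neighbouring cells. The members described here were 10 ligand genes taken by name, Wnt3, Wnt3a, Wnt4, Wnt5a, Wnt5b, Wnt6, Wnt7a, Wnt7b, Wnt8a and Wnt11. The platform annotation gave them 19 probe sets that name 1 gene, out of 34945 such probe sets for 18193 genes. They were 10 of the 19 Wnt ligand genes on the array. The levels came from Affymetrix mouse genome arrays of total RNA from dissected neural tubes, from which the brain and spinal cord develop. The embryos were ICR (CD-1) mice, an outbred stock, with no mutation or treatment named in the labels, at gestation days GD8.5, GD9.0 and GD9.5. The stated aim was to find constantly and differentially expressed mRNAs over this time. Each stage had 4 arrays labelled as biological replicates, without a statement of whether embryos or litters were pooled, so p-values measure only the spread between these arrays.

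Of the 12 arrays, 10 held log2 values (medians 1.75 to 1.82). GD8.5 replicates 1 and 2 had linear intensities, with medians of 92.2 and 98.3, and enter only the alternative fit of all 12 arrays. Stages were therefore compared over 2 arrays at GD8.5 and 4 each at GD9.0 and GD9.5. A level of 1.42, the 95th percentile of 39 olfactory receptor genes, served as the background, and a stage mean at or below it is only an upper bound. The 9 neural tube markers, among them Sox1, Sox2 and Pax6, were above this background at every stage. Their mean log2 level was 5.56 to 5.61 over the GD8.5 arrays, 6.33 to 6.41 at GD9.0 and 7.05 to 7.15 at GD9.5. In bulk tissue, fewer cells of a type and less RNA per cell cannot be told apart.

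A Wnt protein is given its lipid by Porcn, is carried to the cell surface by Wls, and binds a Frizzled receptor. With the Lrp5 or Lrp6 co-receptor the signal stabilises beta-catenin, which acts with Tcf and Lef factors on target genes. Other ligand and receptor pairings act on cell polarity without beta-catenin. In the neural tube, Wnt ligands of the dorsal midline are known for their part in the growth and dorsal patterning of the neural epithelium, and the polarity branch for its part in neural tube closure.

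Among these 10 ligands, those that passed the test over this day were all higher at its end. Of the other 9 Wnt ligand genes on the array, 2 were called higher and 1, Wnt2, lower. From GD8.5 to GD9.5, limma called 5 of the 10 genes higher at GD9.5 (Wnt3, Wnt3a, Wnt4, Wnt5a and Wnt7b) and 0 lower, at a Benjamini-Hochberg adjusted p under 0.05. The same fit called 15.5% of all genes higher and 13.1% lower. Wnt3, among the called genes, was at or below the background at every stage. At an unadjusted p under 0.05 there were 5 higher and 1 lower, which was Wnt11. The count rested on the GD8.5 arrays: it was 2 without GD8.5 replicate 3 and 3 without GD8.5 replicate 4. The changes were modest: the 10 log2 changes lay between -0.29 for Wnt11 and 0.75 for Wnt7b. Their median was 0.16, beside -0.016 over all genes.

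Promoter sequence is shown for the called ligands that have an entry in the RefSeq promoter table (build GRCm38.p6), as description only. Each is the 250 bases before the annotated start of the gene, 5′ to 3′ on the strand of the gene. Capitals mark the GC box GGGCGG and the CCAAT box, searched on both strands with overlapping matches counted. Wnt4 lies at chr4:137277385-137277634 on the plus strand, Wnt3a at chr11:59290752-59291001 on the minus strand and Wnt3 at chr11:103773925-103774174 on the plus strand.
Wnt4: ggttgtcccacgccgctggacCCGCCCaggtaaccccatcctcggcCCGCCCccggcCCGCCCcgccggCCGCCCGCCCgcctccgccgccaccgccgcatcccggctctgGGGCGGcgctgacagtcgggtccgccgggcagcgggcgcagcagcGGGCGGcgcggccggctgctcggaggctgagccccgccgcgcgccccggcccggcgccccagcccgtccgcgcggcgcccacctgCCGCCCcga
Wnt3a: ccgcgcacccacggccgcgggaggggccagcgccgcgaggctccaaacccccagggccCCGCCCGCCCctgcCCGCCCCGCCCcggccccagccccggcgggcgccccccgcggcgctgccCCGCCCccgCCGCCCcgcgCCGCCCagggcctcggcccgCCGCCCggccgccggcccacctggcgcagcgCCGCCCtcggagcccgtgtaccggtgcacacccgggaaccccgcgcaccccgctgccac
Wnt3: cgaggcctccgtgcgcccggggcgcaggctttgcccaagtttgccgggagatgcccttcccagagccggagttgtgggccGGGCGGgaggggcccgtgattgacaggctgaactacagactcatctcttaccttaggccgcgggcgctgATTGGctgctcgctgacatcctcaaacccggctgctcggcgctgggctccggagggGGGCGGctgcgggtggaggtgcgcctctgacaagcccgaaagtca
The Wnt3a window was 87.6% G or C and held 9 GC boxes. The Wnt4 window was 85.2% G or C and held 8 GC boxes. The Wnt3 window was 68.0% G or C, with 2 GC boxes and 1 CCAAT box. The median over 32851 promoter windows of the same length was 52.4%. A GC box was in 32.7% of all windows and a CCAAT box in 33.8%. Neither the TATA box TATAAA, found in 12.4% of all windows, nor CTTTGA, the core letters of a Tcf and Lef motif and found in 13.8%, was in these 3 windows. Ligands that were not called also had GC boxes, 6 each for Wnt6 and Wnt7a and 4 in 1 of the Wnt11 windows, which also held a TATA box and CTTTGA. Of the 10 ligand genes, 7 had an entry. By gene order in RefSeq, Wnt3a and Wnt9a are neighbours, as are Wnt3 and Wnt9b, both pairs on chromosome 11, and Wnt6 and Wnt10a are neighbours on chromosome 1.

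**Figure D1:**
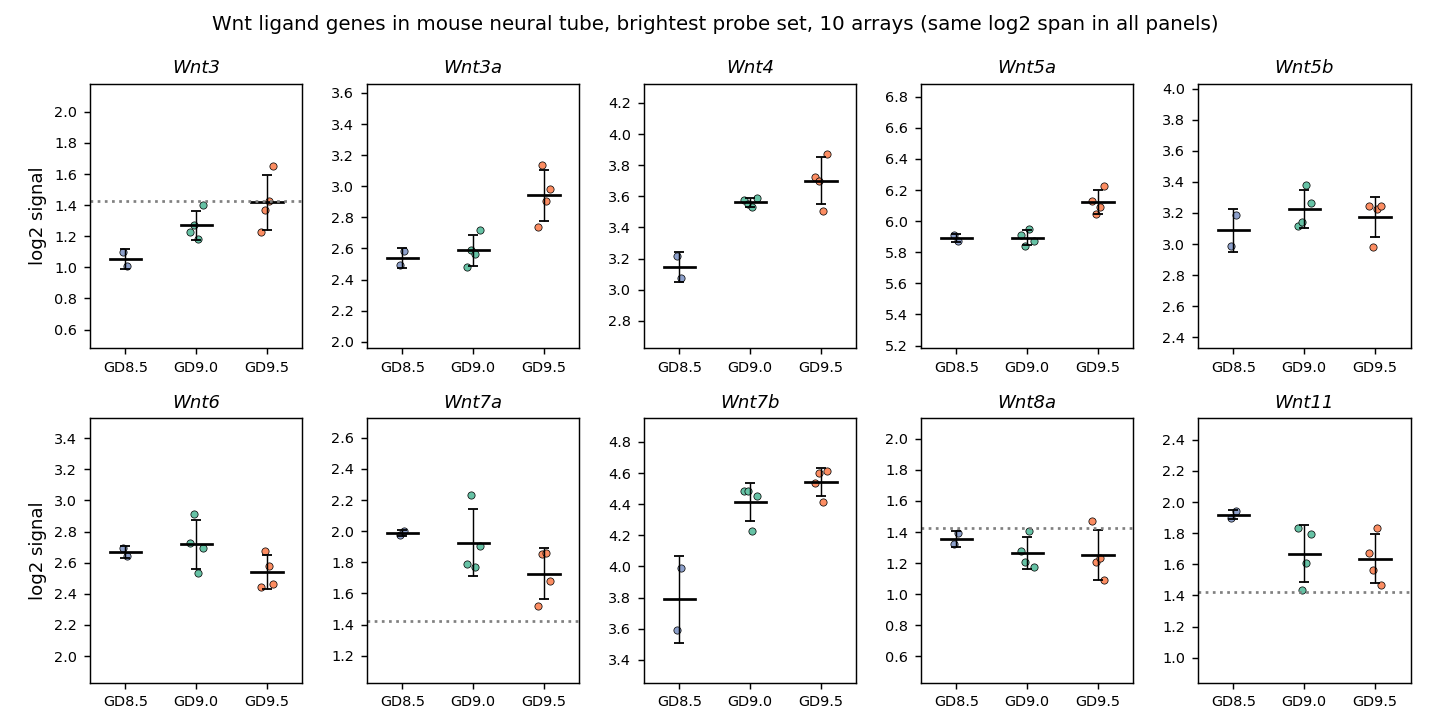
The log2 signal of the brightest probe set of each Wnt ligand gene (vertical axis) at GD8.5, GD9.0 and GD9.5 (horizontal axis). Points are arrays, horizontal lines stage means and bars the SD over 2, 4 and 4 arrays, the dotted line is the background of 1.42, and all panels span the same number of log2 units. The Wnt7b arrays lie at 3.59 and 3.99 at GD8.5 and between 4.42 and 4.61 at GD9.5.

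Wnt7b had the largest change of the 10. This ligand acts through beta-catenin and, with Wnt7a, is known for its role in the growth of blood vessels into the brain and spinal cord. Its log2 levels were 3.59 and 3.99 at GD8.5. They were 4.48, 4.49, 4.23 and 4.45 at GD9.0, and 4.53, 4.60, 4.42 and 4.61 at GD9.5. Both GD8.5 arrays were below all arrays of the later stages, and the arrays of GD9.0 and GD9.5 overlapped. Wnt7b was 1.54-fold higher at GD9.0 than at GD8.5, a log2 change of 0.62 ± 0.11 (SE, adjusted p = 0.00338). From GD9.0 to GD9.5 the log2 change was 0.13 ± 0.093 (adjusted p = 0.380), which did not pass the test. Over the full day Wnt7b was 1.68-fold higher at GD9.5, a log2 change of 0.75 ± 0.11 (adjusted p = 0.000431).

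The size of the Wnt7b change varied with the GD8.5 arrays used and with their processing. Without GD8.5 replicate 3 the change from GD8.5 to GD9.0 was 0.43, with an adjusted p of 0.0538, and over the full day it was 0.55 (adjusted p = 0.00747). With all 12 arrays after log2 and quantile normalization the changes were 1.10 and 1.18, both past the test. The added arrays were deposited on another scale, and the method that made their values is not stated. A difference between arrays and a difference in processing cannot be told apart there. The linear intensities of GD8.5 replicates 1 and 2 were 123 and 262.

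Wnt4 drives the formation of kidney tubules and is also made in the neural tube. In its brighter probe set it rose in the first interval. Its log2 levels were 3.22 and 3.08 at GD8.5. They were 3.58, 3.55, 3.53 and 3.59 at GD9.0, and 3.73, 3.70, 3.51 and 3.87 at GD9.5. The 4 arrays of GD9.0 lay within 0.06 of each other and above both GD8.5 arrays. GD9.0 and GD9.5 overlapped. Wnt4 was 1.33-fold higher at GD9.0 than at GD8.5 (log2 change 0.41 ± 0.09, adjusted p = 0.0103) and 1.47-fold higher at GD9.5 than at GD8.5 (0.55 ± 0.09, adjusted p = 0.000723). The change from GD9.0 to GD9.5 was 0.14 ± 0.074 (adjusted p = 0.209). The dimmer Wnt4 set changed by 0.093 ± 0.11 in the first interval and was not called. The first-interval call was lost without GD8.5 replicate 4, at a log2 change of 0.34 (adjusted p = 0.126).

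Wnt3a, a ligand of the dorsal midline and the tail bud that acts through beta-catenin, rose in the second interval. Its log2 levels were 2.49 and 2.58 at GD8.5. They were 2.48, 2.59, 2.56 and 2.72 at GD9.0, and 2.74, 3.14, 2.90 and 2.98 at GD9.5. All GD9.5 arrays lay above all others, and the arrays of GD9.0 and GD8.5 overlapped. At GD9.5, Wnt3a was 1.28-fold its GD9.0 level (log2 change 0.35 ± 0.084, adjusted p = 0.0103). The change from GD8.5 to GD9.0 was 0.05 ± 0.10 (adjusted p = 0.824). Over the full day the log2 change was 0.40 ± 0.10 (adjusted p = 0.0126), and without GD8.5 replicate 3 it was 0.36 (adjusted p = 0.101).

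Wnt5a, a ligand of the polarity branch that is needed for outgrowth of the body axis and limbs, also rose in the second interval. Its brightest probe set read 5.91 and 5.87 at GD8.5. The GD9.0 arrays were at 5.91, 5.84, 5.95 and 5.87, and the GD9.5 arrays at 6.13, 6.05, 6.09 and 6.23. The GD9.5 arrays were above all others, and those of GD9.0 spanned both GD8.5 values. At GD9.5, Wnt5a was 1.17-fold its GD9.0 level (log2 change 0.23 ± 0.054, adjusted p = 0.00892), while the change from GD8.5 to GD9.0 was 0.0014 ± 0.066 (adjusted p = 0.995). Over the full day the change was 0.23 ± 0.066 (adjusted p = 0.0217). Leaving out GD8.5 replicate 3 or 4 gave 0.25 and 0.21, with adjusted p-values of 0.0784 and 0.141.

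The linear intensities of GD8.5 replicates 1 and 2 were 198 and 216 for Wnt4, 130 and 122 for Wnt3a, and 979 and 979 for Wnt5a. They were 7.20 and 26.7 for Wnt3, 22.7 and 134 for Wnt11 and 273 and 286 for Wnt5b. Those of Wnt6 were 313 and 227, of the brightest Wnt7a set 80.2 and 118, and of Wnt8a 101 and 96.1. By ratio, the pair of linear arrays lay closest for Wnt5a and farthest apart for Wnt11. With all 12 arrays, neither second-interval call passed the test: Wnt3a had a log2 change of 0.32 (adjusted p = 0.126) and Wnt5a of 0.20 (adjusted p = 0.0587). Over the 10 log2 arrays these changes were 0.35 and 0.23. The added arrays are of GD8.5, so they enter this comparison only through the shared spread and the joint normalization.

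Wnt3, which is required for formation of the primitive streak, was the dimmest ligand called. Its only probe set, of a type that shares sequence with other transcripts, read 1.10 and 1.01 at GD8.5. It read 1.23, 1.27, 1.18 and 1.40 at GD9.0, and 1.23, 1.37, 1.43 and 1.65 at GD9.5. The GD9.5 arrays were above both GD8.5 arrays and overlapped those of GD9.0. The log2 change over the full day was 0.36 ± 0.11 (adjusted p = 0.0238), and the call was lost without GD8.5 replicate 3 (adjusted p = 0.0694) or 4 (adjusted p = 0.163). With all 12 arrays, including those deposited on another scale, the change was 0.69. The 3 stage means, 1.05, 1.27 and 1.42, were all at or below the background, so no fold is given for Wnt3.

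The other 5 genes passed the test in no comparison. Wnt5b, a close relative of Wnt5a, had stage means of 3.09, 3.23 and 3.18. Its arrays read 2.99 to 3.19 at GD8.5, 3.11 to 3.38 at GD9.0 and 2.98 to 3.25 at GD9.5, and the stages overlapped. Wnt6, known from the surface ectoderm, had stage means of 2.67, 2.72 and 2.54, with a log2 change of -0.18 ± 0.082 from GD9.0 to GD9.5 (adjusted p = 0.158), where the arrays of both stages overlapped. Wnt11, known in fish and frogs for its role in cell movements at gastrulation, read 1.90 and 1.94 at GD8.5. Its arrays were at 1.83, 1.43, 1.61 and 1.80 at GD9.0, and at 1.67, 1.56, 1.83 and 1.47 at GD9.5. Both GD8.5 arrays of Wnt11 were above all later arrays. Its full-day log2 change was -0.29 ± 0.12 (adjusted p = 0.110), and -0.35 without GD9.5 replicate 3 (adjusted p = 0.0489). Wnt8a, an early ligand of the streak and hindbrain region, had stage means of 1.36, 1.27 and 1.25, all below background, and array values between 1.09 and 1.47.

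**Figure D2:**
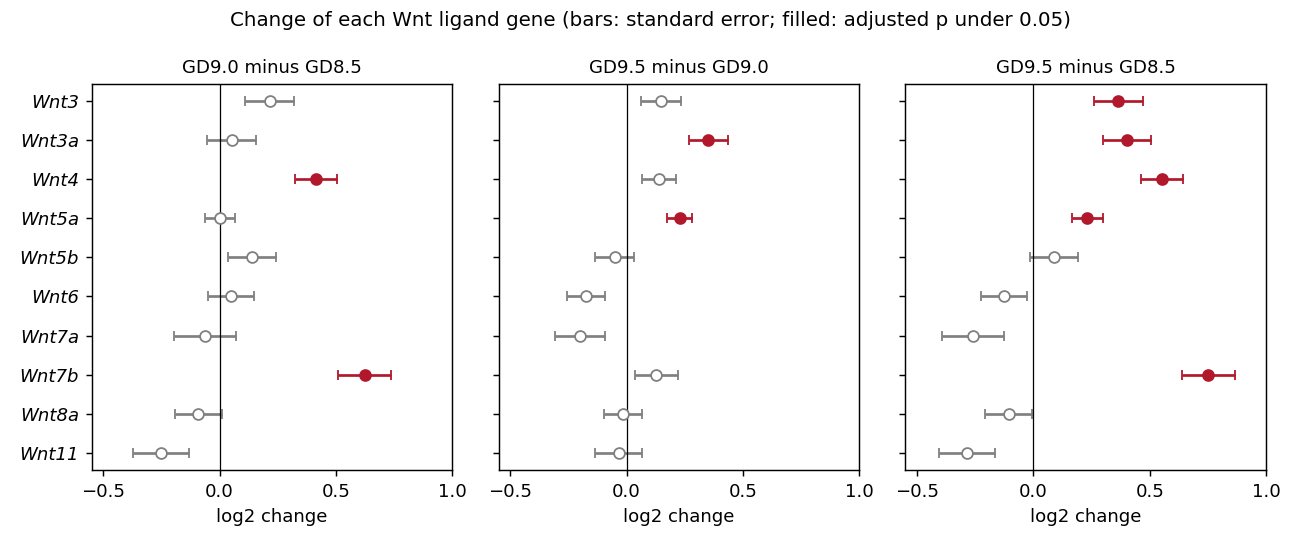
The log2 change of each Wnt ligand gene (horizontal axis) in 3 comparisons, later stage minus earlier stage. Points are limma estimates from the brightest probe set, bars the standard error, and filled points passed an adjusted p of 0.05. Wnt4 and Wnt7b are filled for GD9.0 minus GD8.5, Wnt3a and Wnt5a for GD9.5 minus GD9.0, and Wnt3 and those 4 for GD9.5 minus GD8.5.

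By interval, GD9.0 against GD8.5 gave 2 of 10 ligands higher (Wnt4 and Wnt7b) and 0 lower. All genes gave 6.78% higher and 6.74% lower. At an unadjusted p under 0.05 the count was also 2 higher and 0 lower, and 7 of the 10 estimates were positive. GD9.5 against GD9.0 gave 2 of 10 higher (Wnt3a and Wnt5a) and 0 lower, beside 14.1% and 10.3% of all genes. The unadjusted count was again 2 higher and 0 lower, and 5 of the 10 estimates were positive. The median ligand change was 0.050 in the first interval and 0.056 in the second, beside -0.0019 and -0.0077 over all genes.

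The difference between the intervals was tested directly, as the second change minus the first. The limma test called 0 of the 10 ligands, and 11.6% of all genes. At an unadjusted p under 0.05, Wnt5a was higher in the second interval and Wnt7b lower. Wnt7b had a difference of -0.50 ± 0.17 (adjusted p = 0.0946), and Wnt5a of 0.23 ± 0.10 (adjusted p = 0.185). Wnt4 had -0.27 ± 0.14 (adjusted p = 0.251) and Wnt3a 0.30 ± 0.16 (adjusted p = 0.277). A difference between first-interval and second-interval ligands thus did not pass this test. For Wnt7b the difference passed without GD8.5 replicate 4, at -0.70 (adjusted p = 0.0254), and with an intensity trend and robust spread (adjusted p = 0.0380).

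Probe sets of 1 gene did not always move together. In a fit over all 45037 probe sets, 8 of the 19 ligand probe sets were called higher at GD9.5 than at GD8.5, beside 10.4% of all probe sets. GD9.5 against GD9.0 gave 5 of 19 (8.93% of all), and GD9.0 against GD8.5 gave 2 of 19 (4.28% of all). None of the 19 was called lower by limma in these 3 comparisons, and at an unadjusted p under 0.05 the Wnt11 set alone was lower, over the full day.

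Wnt7a patterns the dorsal side of the limb and acts with Wnt7b in the vessels of the nervous system. Its probe sets disagreed in the sign of the full-day change. Its brightest set, 1447647_at, read 1.97 and 2.00 at GD8.5, 1.77 to 2.23 at GD9.0 and 1.52 to 1.86 at GD9.5, with a full-day log2 change of -0.26 ± 0.13 (adjusted p = 0.222). The second set, 1423367_at, read 1.48 and 1.27 at GD8.5. It read 1.39, 1.55, 1.54 and 1.59 at GD9.0, and 1.85, 2.09, 1.73 and 2.12 at GD9.5. All GD9.5 arrays of this set lay above the rest. It rose by 0.43 ± 0.094 from GD9.0 to GD9.5 (adjusted p = 0.00740), and was at least 1.44-fold higher at GD9.5 than at GD8.5, where it was below background (adjusted p = 0.00356). The third Wnt7a set was below background at all stages. No direction for Wnt7a is therefore given.

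Wnt5a had 4 probe sets, and 3 of them were called higher in the second interval. The log2 changes of those 3 were 0.23 for 1436791_at, 0.33 for 1437673_at and 0.42 for 1448818_at, and the fourth, 1456976_at, had 0.07 ± 0.12. Over the full day, 1436791_at and 1437673_at were called higher. The others were not: 1448818_at had 0.29 ± 0.11 (adjusted p = 0.103) and 1456976_at 0.08 ± 0.15 (adjusted p = 0.803). The second Wnt7b set, 1420891_at, was below background at GD8.5 and GD9.0. It was at least 1.06-fold higher at GD9.5 than at GD8.5 (adjusted p = 0.0351). The dimmer Wnt4 set, 1441687_at, had a full-day change of 0.24 ± 0.11 (adjusted p = 0.170), against 0.55 in the brighter set. Its first-interval change was 0.093 ± 0.11 (adjusted p = 0.736), against 0.41, and its arrays of GD8.5 and GD9.0 overlapped. No ligand reached a difference of 1 between its highest and lowest stage means, so none met the condition for a search for genes with a like pattern.

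**Figure D3:**
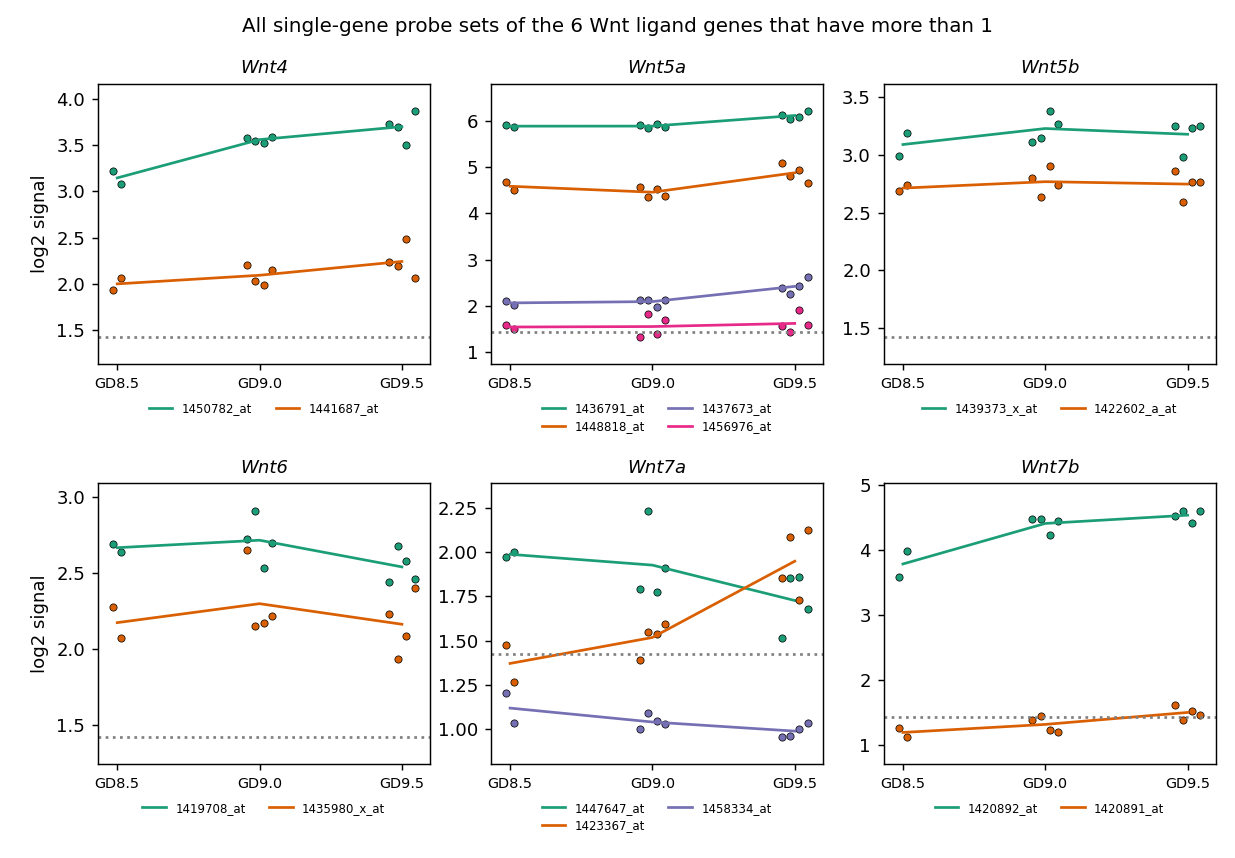
The log2 signal (vertical axis) of each single-gene probe set of the 6 ligand genes with more than 1, at GD8.5, GD9.0 and GD9.5. Points are arrays, lines join stage means, colours are probe sets and the dotted line is the background of 1.42. In the Wnt7a panel the set 1423367_at is highest at GD9.5, while 1447647_at has means of 1.99, 1.93 and 1.73.

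The 9 Wnt ligand genes outside the 10 included larger changes. Wnt8b, a forebrain ligand, was 4.46-fold higher at GD9.0 than at GD8.5 (log2 change 2.16 ± 0.066, adjusted p = 2.96e-09). Wnt9a, the neighbour of Wnt3a, was 1.40-fold higher at GD9.0 than at GD8.5 (adjusted p = 0.0299). At GD9.5 it was 1.63-fold its GD9.0 level (adjusted p = 0.000583), the interval in which Wnt3a was called. Wnt9b, the neighbour of Wnt3, and Wnt10a, the neighbour of Wnt6, passed in no comparison. Their full-day log2 changes were -0.25 ± 0.16 and -0.16 ± 0.075. Wnt9b was below background at GD9.0 and GD9.5, and Wnt10a at every stage, with means of 1.38, 1.34 and 1.22. Wnt2, known from the heart and lung, fell by 0.90 ± 0.10 on the log2 scale in the first interval (adjusted p = 0.000127). It was below background at GD9.0 and GD9.5, and at least 1.68-fold lower at both than at GD8.5. Wnt1, a ligand of the dorsal midline, had stage means of 2.36, 2.28 and 2.12 and passed in no comparison.

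Genes that handle or receive Wnt ligands were counted from lists by role. Of all genes, 6.78% were called higher and 6.74% lower in the first interval. In the second these shares were larger, at 14.1% and 10.3%, and over the full day they were 15.5% and 13.1%. Each list count below is to be read beside these shares. The first interval compares 2 arrays with 4 and the second 4 with 4, so standard errors are larger in the first. The part of this in the difference between the counts of the intervals was not tested. None of the 4 genes for ligand secretion and release was called in the 3 stage comparisons by limma, and at an unadjusted p under 0.05 the counts were 0, 1 and 1 lower. Wls, the carrier of Wnt proteins, had stage means of 7.73, 7.77 and 7.64 in its brightest probe set. Of its 4 probe sets, 1 was called higher in the first interval and 2 were called lower in the second. Porcn, the enzyme that adds the lipid, had means of 2.14, 2.20 and 2.19.

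Among 16 Frizzled receptors and co-receptors, the first interval had 1 higher and 4 lower, and the second 6 higher and 4 lower. Fzd5, a receptor of the eye field and yolk sac, fell by 1.01 ± 0.12 and then by 1.13 ± 0.10 on the log2 scale. Fzd10, a receptor of the dorsal neural tube, rose by 0.98 ± 0.084 in the second interval. Ror2, a receptor for Wnt5a, fell by 0.40 ± 0.058 and by 0.38 ± 0.047, the second fall in the interval in which Wnt5a rose. The 1 receptor higher at GD9.0 was Fzd3, whose probe sets were called in opposite directions over the full day.

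Of 12 secreted antagonists, 2 were higher and 3 lower in the first interval, and 3 were higher and 4 lower in the second. Sfrp2, which binds Wnt proteins, rose by 0.85 ± 0.056 and 0.73 ± 0.046. Dkk1, which blocks Lrp co-receptors and is itself a target of the pathway, fell by 0.81 ± 0.071 and 0.96 ± 0.058. Of 9 R-spondins and genes of receptor turnover, 4 and then 5 were higher, and 0 were lower in either interval by limma or at an unadjusted p under 0.05. R-spondins raise the number of Wnt receptors at the cell surface. Rspo2 rose by 2.78 ± 0.11 in the first interval and Rspo3 by 1.70 ± 0.056 in the second, both more in log2 terms than any of the 10 ligands.

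Of 20 genes of the beta-catenin branch core, limma called 0 higher and 5 lower in the first interval (1 and 7 at an unadjusted p under 0.05), and 9 higher and 2 lower in the second. Lef1, a nuclear partner of beta-catenin, fell by 0.43 ± 0.072 and then rose by 0.24 ± 0.059. Tcf7l2, another such partner, rose by 0.64 ± 0.086 in the second interval. Of 18 target genes, the first interval had 1 higher and 9 lower, and the second 5 higher and 2 lower. Among all genes the share called higher also rose, from 6.78% to 14.1%, and the share called lower from 6.74% to 10.3%. The median target change was -0.26 in the first interval and 0.061 in the second. The lists share genes, so their counts are not independent. Of the targets, Lef1 is also in the core list, Dkk1 among the antagonists, and Rnf43, Znrf3 and Lgr5 in receptor turnover. Cdx1, Cdx2, Cdx4, Msgn1 and Tbx6 are also among the caudal progenitor and primitive streak markers given below.

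Among the targets, Axin2, a feedback inhibitor, had a log2 change of -0.04 ± 0.066 in the first interval (adjusted p = 0.768). It rose by 0.22 ± 0.054 in the second (adjusted p = 0.0124). Sp5, another direct target, fell by 0.48 ± 0.082 and by 0.44 ± 0.067. Cdx2 and Cdx4, caudal targets that pattern the tail end of the embryo, both fell in the first interval. The Cdx2 change was -1.02 ± 0.20, and Cdx4 fell below background, with a mean of 0.98 at GD9.0 against 3.35 at GD8.5. Of 18 polarity genes, 1 was higher and 3 lower in the first interval, and 6 were higher and 2 lower in the second. Celsr2, a polarity cadherin, rose by 0.44 ± 0.086 and 0.87 ± 0.070, while Prickle1, a cytoplasmic polarity protein, fell by 1.46 ± 0.18 in the first interval.

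**Figure D4:**
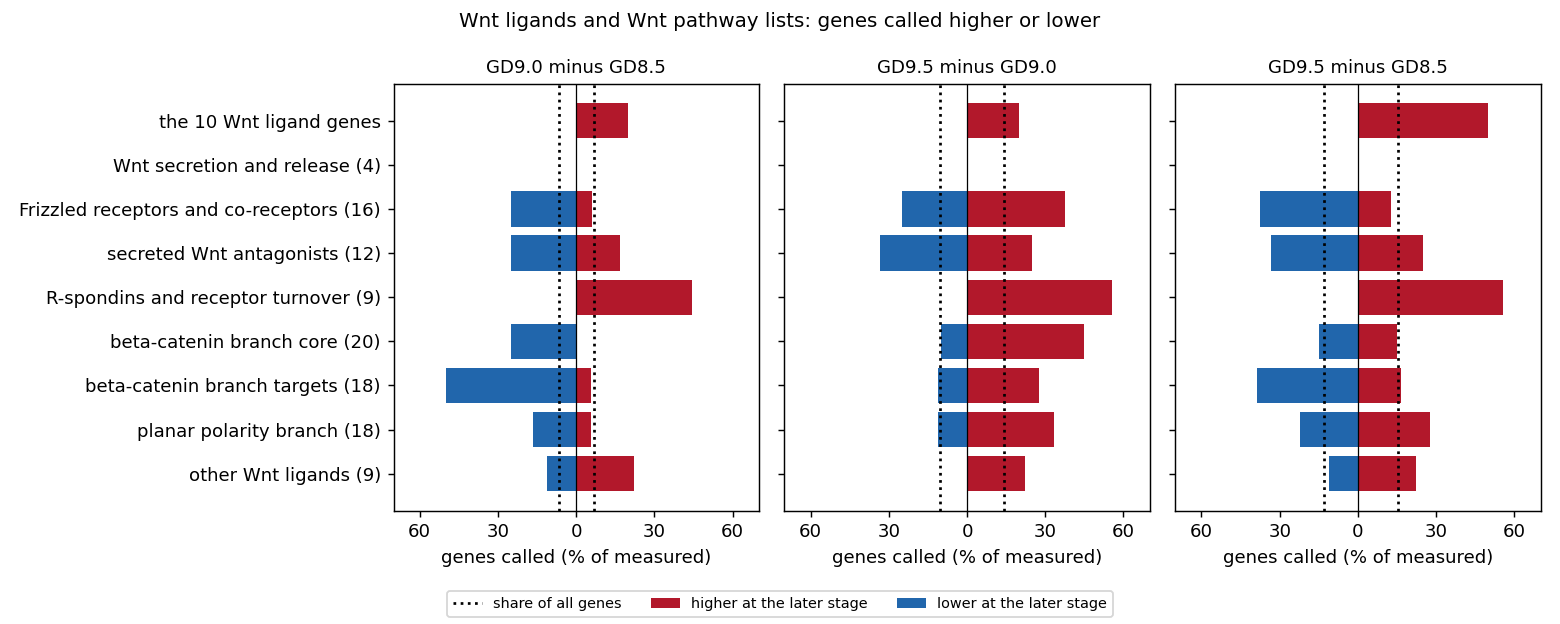
The share of genes called higher (right) or lower (left) at the later stage, in percent of genes measured, for the 10 Wnt ligands and 8 lists of Wnt pathway genes in 3 stage comparisons. Dotted lines mark the share of all genes called in the same direction. The bars of the 10 ligands run to the right only, while the receptor and antagonist bars run both ways.

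The dissected tissue differed between stages in markers of other tissues. All 10 cardiac muscle markers were called lower in the first interval, and their mean log2 level was 5.76 to 5.84 over the GD8.5 arrays, 3.06 to 3.16 at GD9.0 and 1.47 to 1.55 at GD9.5. All 9 endoderm and yolk sac markers were also called lower in the first interval, with means of 6.47 to 6.48, 3.52 to 3.62 and 1.59 to 1.68 at the 3 stages. At GD9.5, 5 of the cardiac markers (Tnnt2, Nppa, Myh6, Myl4 and Ttn) and 3 of the endoderm markers (Apob, Amn and Cubn) were at or below background. Surface ectoderm markers, 9 measured, had 7 lower at GD9.0 and 8 lower at GD9.5 than at the stage before. The gene called higher in the first interval was Trp63, a factor of the basal epidermis, which rose by 0.90 ± 0.094. The list's means were 5.19 to 5.26, 4.64 to 4.70 and 3.97 to 4.10 at the 3 stages.

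Primitive erythroid markers, 7 measured, had 6 called higher in each interval, Gata1 being the exception. Their means were 5.16 to 5.37, 6.47 to 6.55 and 7.14 to 7.29 at the 3 stages. Of 3 decidua and placenta markers, Prl8a2, a prolactin-family gene of the decidua, had stage means of 9.47, 4.52 and 5.64, and the other two were at or below background at both later stages.

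Markers of the cells that make some of these ligands moved as well. The roof plate list, 5 genes measured, had a mean of 3.13 on both GD8.5 arrays, 3.54 to 3.64 at GD9.0 and 4.00 to 4.22 at GD9.5, with Lmx1a at or below background at GD8.5 and GD9.5. Its members were mixed. In the first interval Rspo1, which is also in the R-spondin list, rose by 2.22 ± 0.091 and was the only gene called higher. Msx2 fell by 0.34 ± 0.078 in that interval, and the other 3 were not called. In the second interval Rspo1, Msx1 and Zic4 were called higher. The caudal progenitor and primitive streak list, 11 genes measured, was at 2.69 to 2.79 at GD8.5, 1.64 to 1.79 at GD9.0 and 1.78 to 1.84 at GD9.5. In the first interval limma called 0 of these genes higher and 6 lower (0 and 8 at an unadjusted p under 0.05). In the second it called 1 higher and 0 lower. Nkx1-2, Cdx1, Cdx4 and Tbx6 were at or below background at both later stages. Fgf17 went the other way, rising by 0.58 ± 0.082 in the second interval, and Fgf8 had stage means of 3.43, 3.38 and 3.37. Of the 9 neural tube markers, 6 were called higher in the first interval, 8 in the second and 9 over the full day. The part of these tissue differences in the ligand changes was not tested.

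**Figure D5:**
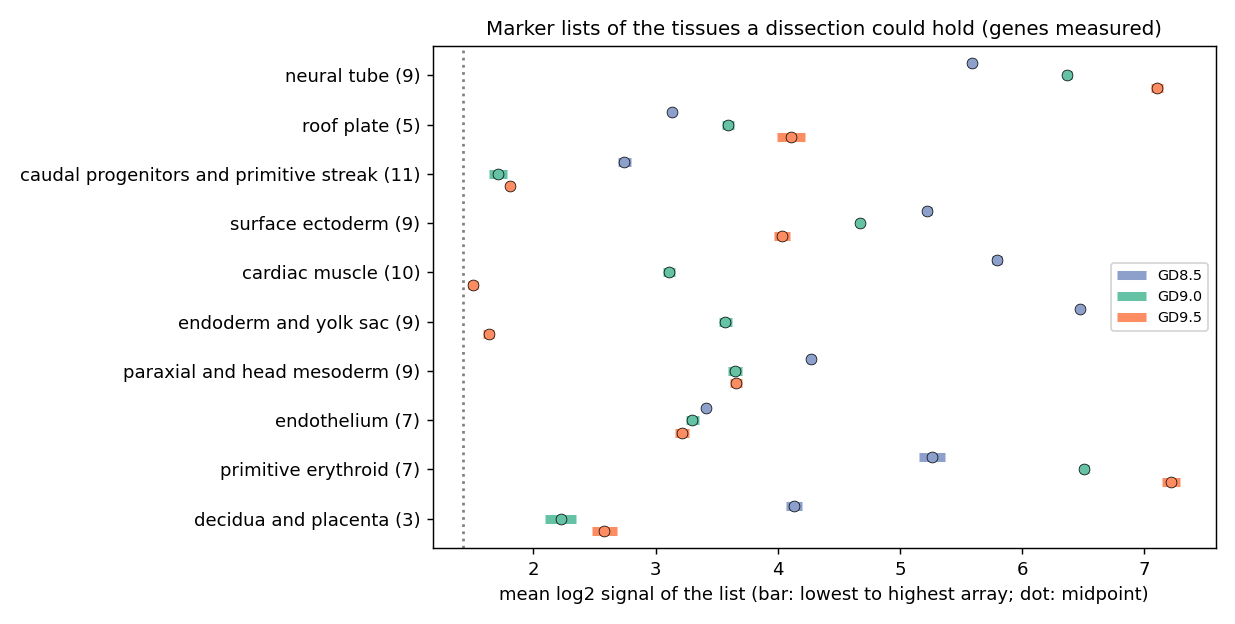
The mean log2 signal (horizontal axis) of 10 lists of tissue markers (vertical axis, genes measured in brackets) at GD8.5, GD9.0 and GD9.5. Bars run from the lowest to the highest array of a stage, dots are midpoints and the dotted line is the background of 1.42. The neural tube list is highest at GD9.5, at 7.05 to 7.15, and the cardiac muscle list at GD8.5, at 5.76 to 5.84.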

How the data were processed

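Gene expression was measured in 12 arrays of mouse neural tube at 3 stages. RMA, GCRMA and Expression Console 1.2.1 of Affymetrix appear in the submitters' processing notes, without saying which step each served. The authors deposited log2 values for 10 arrays, which had been normalized across arrays (sorted values lay within 0.27 of each other). For GD8.5 replicates 1 and 2 they deposited linear intensities. Regressed on log2 of those intensities, the other GD8.5 arrays had a slope of 1.01, so base 2 was assumed. The number of arrays limits the precision.

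Of 45101 probe sets, 64 controls were left out. By the platform annotation 34945 named 1 gene, 932 several and 9160 none. Each gene was represented by its brightest single-gene probe set, and 48 of the 18193 genes were not matched in the RefSeq table of current symbols. Stage means of the 10 log2 arrays were fitted with limma 3.58.1 (R 4.3.3, 7 residual degrees of freedom, prior 3.86), with Benjamini-Hochberg adjustment over all genes. A second fit covered all non-control probe sets. Genes were called at an adjusted p under 0.05, and errors of changes are standard errors. The fit was tested on simulated data.

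All 10 members were named. From each pathway list up to 3 called genes per direction and comparison could be named, by size of change. Axin2, Porcn, Wls, Wnt1, the first-interval value of Sp5 and single marker genes are given whatever their rank, a choice made after their values were seen. A named gene with probe sets called in opposite directions in a comparison is given no direction there. Counts by list rest on the brightest probe set alone. The members and lists were chosen with earlier results of these data known. Equal replicate numbers did not pair the arrays: correlations of deviations from stage means lay between -0.062 and 0.10, and the labels name no shared litter. Alternatives were 12 arrays after log2 and quantile normalization, median centring, repeated quantile normalization, an intensity trend with robust spread, probe sets averaged per gene, dim genes or shared probe sets left out, a replicate block and each array left out in turn.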

Additional observations from a re-analysis of the deposited data

Results flagged for a closer look

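Each probe set of the 10 ligand genes was examined at GD9.0 and GD9.5 for an array far from the other 3 of its stage, by Dixon's test at its 95% level. There were 4 such arrays among 38 groups, and chance gives about 1 in 20. GD9.0 replicate 3 read 4.23 for Wnt7b (1420892_at), against 4.45 to 4.49 in the others. The same array read 1.97 for Wnt5a (1437673_at), against 2.12 to 2.13. GD9.5 replicate 2 read 2.98 for Wnt5b (1439373_x_at), against 3.23 to 3.25. GD9.0 replicate 1 read 2.65 for Wnt6 (1435980_x_at), against 2.16 to 2.22.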

How the results depend on the processing

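The full-day calls of Wnt4 and Wnt7b held in all 18 alternatives, with log2 changes of 0.40 to 0.62 and 0.53 to 1.18. No called change turned direction. Wnt3, called over the full day, had no value where dim genes or shared probe sets were left out, so its call was absent there. Of 9 called ligand changes, 67 of 70 values under other settings and 83 of 90 with an array left out kept the call. Of GD9.0 against GD8.5, the count of 2 ligands was 1 with a replicate block (Wnt4 at 0.41, adjusted p = 0.0518) and 1 to 2 with an array left out. Of GD9.5 against GD9.0, the count of 2 was 0 with all 12 arrays, and 2 to 3 with an array left out. Of GD9.5 against GD8.5, the count of 5 was 2 to 6 with an array left out: 2 without GD8.5 replicate 3, 3 without replicate 4 and 6 without GD9.5 replicate 3, which added Wnt11. For the difference between the intervals, the count of 0 was 1, Wnt7b, with an intensity trend and robust spread (adjusted p = 0.0380) and with a replicate block (-0.45, adjusted p = 0.0483), and 0 to 1 with an array left out. Where a GD8.5 array was left out, the lone array was assumed to vary like the other stages. Apart from the changes named here, the causes of which were not tested, the replicate block changed no call among the ligands. Wnt3 and Wnt8a lay near or below background, where the arrays give bounds only.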
